A study of Mus musculus with 30 samples.

Results

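The CXC chemokines and the neutrophil receptors that read them were followed through 8 organs of arthritic and healthy mice. The genes were chosen by name: the ligands Cxcl1, Cxcl2, Cxcl5, Cxcl12 and Cxcl13 and the receptors Cxcr2 and Cxcr4. Of these 7 genes, 6 were measured among the 23013 gene rows, namely 4 ligands and both receptors, and the level of Cxcl13 was not analysed here.

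CXC chemokines are small secreted proteins that direct migrating leukocytes through G protein-coupled receptors. Cxcl1, Cxcl2 and Cxcl5 draw neutrophils by binding Cxcr2, and they are made by stromal cells, macrophages and neutrophils themselves during inflammation. Cxcl12, made by mesenchymal stroma, binds Cxcr4, which retains neutrophils and precursors in bone marrow and is also carried by lymphocytes, and in arthritic joints both axes are known from the synovium.

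The 30 Seq-Well libraries, a microwell method for single-cell RNA sequencing, came from 8 male DBA1/J mice that the methods give as 8 to 12 weeks old. Mice H3, H4, H6 and H7 were healthy, with an arthritis score of 0, and received buffer according to the methods. The 4 mice with collagen-induced arthritis (CIA) were given 100 µg of bovine collagen II in Freund's adjuvant with a booster on day 20, and scored 8 (S1 and S2), 3 to 4 (S6) and 3 (S7). Blood and lymph node were measured in 4 healthy and 3 CIA mice each, whereas joint (H3 and S1) and spleen, thymus, muscle, skin and lung (H6 and S1) came from 1 mouse per state. Blood was reduced to mononuclear cells on a gradient with red cells lysed, a step meant to leave most neutrophils behind. The dissected organs were frozen and thawed. Per the methods, thymus, spleen and lymph node were then passed through a strainer, whereas joint, muscle, lung and skin were minced and treated with enzymes. In either state, the suffix of a library title was CIA (13 libraries) or 2CIA (17), which the labels do not explain.

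Cxcl1 and Cxcl2 are neighbours on mouse chromosome 5 in a cluster that also holds Cxcl3, Cxcl5, Pf4, Ppbp and Cxcl15. RefSeq promoters (build GRCm38.p6) were matched for 6 of the 7 listed genes. Both Cxcl1 and Cxcl2 carry GGGAATTTC, the core of a kappaB element, in the 250 bases before the start site. It was searched on both strands (GAAATTCCC on the other). It was present in 2 of the 6 matched members and in 0.234% of 32851 promoters of the same length. Among the other CXC genes, 2 of 12 matched promoters held it, those of Cxcl3 and, on the reverse strand, Cxcl9. The stretches are shown because these neighbouring ligands had the highest levels of the members in the joint sums of both mice. Capitals mark the 9 letters, and each stretch lies on the plus strand with 20 bases on either side.
Cxcl1, chr5:90891154-90891202: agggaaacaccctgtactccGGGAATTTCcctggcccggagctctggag
Cxcl2, chr5:90903782-90903830: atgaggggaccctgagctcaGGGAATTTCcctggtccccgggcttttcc
Cxcl3, chr5:90786008-90786056: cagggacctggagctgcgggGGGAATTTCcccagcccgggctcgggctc
The match begins 71 bases before the start site in Cxcl1, 97 in Cxcl2 and 73 in Cxcl3. The promoters of Cxcl12, Cxcl13, Cxcr2 and Cxcr4 did not hold these letters in this window, which says nothing of a factor's binding.

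Values are given as units per 1000000 (UPM): the deposited values of a library, summed, set relative to their total and rescaled by a trimmed mean of log ratios so that libraries dominated by a few genes stay comparable. The deposited values had been smoothed over neighbouring barcodes, so a unit is not a molecule and barcodes of a library are not independent. Libraries held 27 to 934 barcodes and 217494 to 7886790 units. In 19 libraries only 5.25% to 21.3% of the genes above 0 never passed 1 unit, against 37.1% to 58.1% in the other 11. All lymph node and thymus libraries are among the 19. Genes at low levels were thus listed unevenly, for a reason the sources used here do not give, and a 0 is given only as listed at 0. The muscle library of H6 carried 124346 UPM of 11 neutrophil markers and had 4 of 5 skeletal muscle markers listed at 0, with 56.0 UPM for Acta1, so it is called by its label without a claim on its cells. The lung library of S1 and the spleen library of H6 shared 13 barcode sequences. Summed levels do not tell fewer cells of a type from less RNA per cell.

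Cxcl1, a Cxcr2 ligand, was seen in libraries of skin, joint, lung and muscle, which were enzyme-treated, and hardly in those of the strained lymphoid organs. The part of this preparation was not tested. Cxcl1 stood at 1616 UPM in skin of H6 and at 1256 UPM in skin of S1. In the joint it stood at 724 UPM in H3 and, in the S1 libraries, at 668 UPM (suffix 2CIA) and 837 UPM (suffix CIA). Lung held 345 UPM in H6 and 105 UPM in S1, and muscle 58.8 UPM in H6 and 222 UPM in S1. Outside these organs Cxcl1 was above 0 only in spleen of S1, at 8.58 UPM, and in 1 blood library of H4. The healthy and CIA joint thus lay side by side, below skin.

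Cxcl2, the second Cxcr2 ligand of this cluster, was spread more widely, with values above 0 in 20 of 30 libraries. Lung led with 2052 UPM in H6 and 2245 UPM in S1. The joint held 639 UPM in H3, 1391 UPM in the 2CIA library of S1 and 388 UPM in its CIA library, so the S1 libraries stood on either side of the healthy one. Muscle held 631 UPM in H6 against 137 UPM in S1, skin 147 UPM against 319 UPM and spleen 56.3 UPM against 354 UPM. In skin, neutrophil markers stood at 32.9 UPM in H6 (4 of 11 above 0) and 120 UPM in S1 (5 of 11). Monocyte and macrophage markers there were 12.7 UPM (2 of 10) and 32.2 UPM (5 of 10), and the part of either list was not tested. In blood the healthy mice stood at 350 UPM (H3), 138 UPM (H4), 47.9 UPM (H6) and 9.63 UPM (H7), and the CIA mice at 897 UPM (S2) and 290 UPM (S7), with S6 listed at 0. In lymph node all 4 healthy mice were listed at 0, with 26 UPM in S1 and 20.3 UPM in S7, and S2 was listed at 0. The value of S7 came from its 2CIA library, at 30.7 UPM, while its CIA library was listed at 0, so both libraries with Cxcl2 carried the suffix 2CIA. The states overlapped in blood, and S2 alone exceeded every healthy mouse. The lymph node libraries of CIA mice held 95.8 to 2067 UPM of neutrophil markers and those of healthy mice 0 to 3409 UPM, and their part was not tested. Thymus was listed at 0 in both mice.

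Cxcl5, a Cxcr2 ligand of stromal and epithelial cells, was the scarcest member, with 430 units in 61 barcodes of 4 libraries. Most of it, 341 units, came from 1 library: the joint of S1 with suffix CIA stood at 471 UPM, in 20 of 70 barcodes, while the other S1 joint library stood at 3.00 UPM, in 23 of 606. These 20 barcodes had 5 distinct profiles, so few independent measurements carry the value. Skin of S1 held 34.0 UPM and lung of H6 16.9 UPM, and the joint of H3 was listed at 0.

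Cxcl12, the ligand of Cxcr4, was above 0 only in libraries of joint, muscle and skin. All 6 fibroblast markers were listed at 0 in every library of blood, lymph node and spleen, and the part of organ preparation was not tested. Joint levels were 239 UPM in H3 and 244 UPM (2CIA) and 379 UPM (CIA) in the S1 libraries. Skin held 49.3 UPM in H6 and 151 UPM in S1. Muscle held 301 UPM in S1 and was listed at 0 in H6. In muscle, the summed level of the 6 fibroblast markers moved with it, at 579 UPM in H6 (5 of 6 above 0, Pdgfra at 0) and 8163 UPM in S1 (all 6 above 0), and in skin it was 3764 UPM in H6 and 14572 UPM in S1. The part of these markers in the difference was not tested.

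Cxcr2, the receptor that carries neutrophils toward Cxcl1, Cxcl2 and Cxcl5, was above 0 in 10 libraries, of blood, spleen, joint and lymph node. Healthy blood stood at 50.1 UPM (H3), 93.3 UPM (H4), 17.5 UPM (H6) and 94.1 UPM (H7), where the value of H4 came from its CIA library, at 100.8 UPM, and its 2CIA library was listed at 0. Cxcr2 stood in CIA blood at 284 UPM (S2) and 418 UPM (S7), with S6 listed at 0. Both S2 and S7 were thus above all healthy mice. The blood library of S6 held 62 barcodes with 22 distinct profiles and is among the 19 with few genes at low levels, at 5.25%, so its 0 for Cxcl2 and Cxcr2 does not show that it lay below the other mice. In the joint, the 2CIA library of S1 held 97.7 UPM, in 259 of 606 barcodes, whereas H3 and the CIA library of S1 were listed at 0. Those joint libraries also listed few genes at low levels: 12.5% of the genes above 0 never passed 1 unit in H3 and 6.18% in the CIA library, against 37.1% in the 2CIA library. Spleen held 7.34 UPM in H6 and 28.3 UPM in S1. In lymph node only H7 was above 0, at 38.4 UPM. Cxcr2 was listed at 0 in both libraries of thymus, muscle, skin and lung, including muscle of H6 with its neutrophil markers, although that library is among the 19 with few genes at low levels.

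Cxcr4, the Cxcl12 receptor of lymphocytes and neutrophils, was the most widely seen member, above 0 in 28 of 30 libraries. Muscle and skin of S1 were the exceptions. Blood of healthy mice stood at 336 UPM (H3), 873 UPM (H4), 292 UPM (H6) and 269 UPM (H7), and that of CIA mice at 440 UPM (S2), 79.4 UPM (S6) and 345 UPM (S7). Scaled by the total alone, H4 stood at 384 UPM and H3 led with 432 UPM, so the order among these mice rests on the scaling. The H4 libraries also carried the most erythroid marker of healthy blood, 972970 and 1038305 UPM, and its part was not tested. Such rescaled sums are not shares of a library's units. In the H4 blood libraries the rescaling divided all values by 0.5769 (suffix 2CIA) and 0.4886 (suffix CIA), which raised them. Lymph node sums per mouse stood at 275, 250, 209 and 304 UPM in H3, H4, H6 and H7 and at 308, 272 and 298 UPM in S1, S2 and S7. The libraries of a mouse differed more than these sums, at 189 UPM (2CIA) and 395 UPM (CIA) in S7 and at 261 UPM (2CIA) and 170 UPM (CIA) in H4. Thymus held 129 UPM in H6 and 40.5 UPM in S1, spleen 339 UPM and 244 UPM, and lung 149 UPM and 276 UPM. The joint stood at 151 UPM in H3 and at 105 UPM and 227 UPM in the S1 libraries. The lymph node sums thus lay above the joint sums of both mice, while single libraries overlapped.

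**Figure D1:**
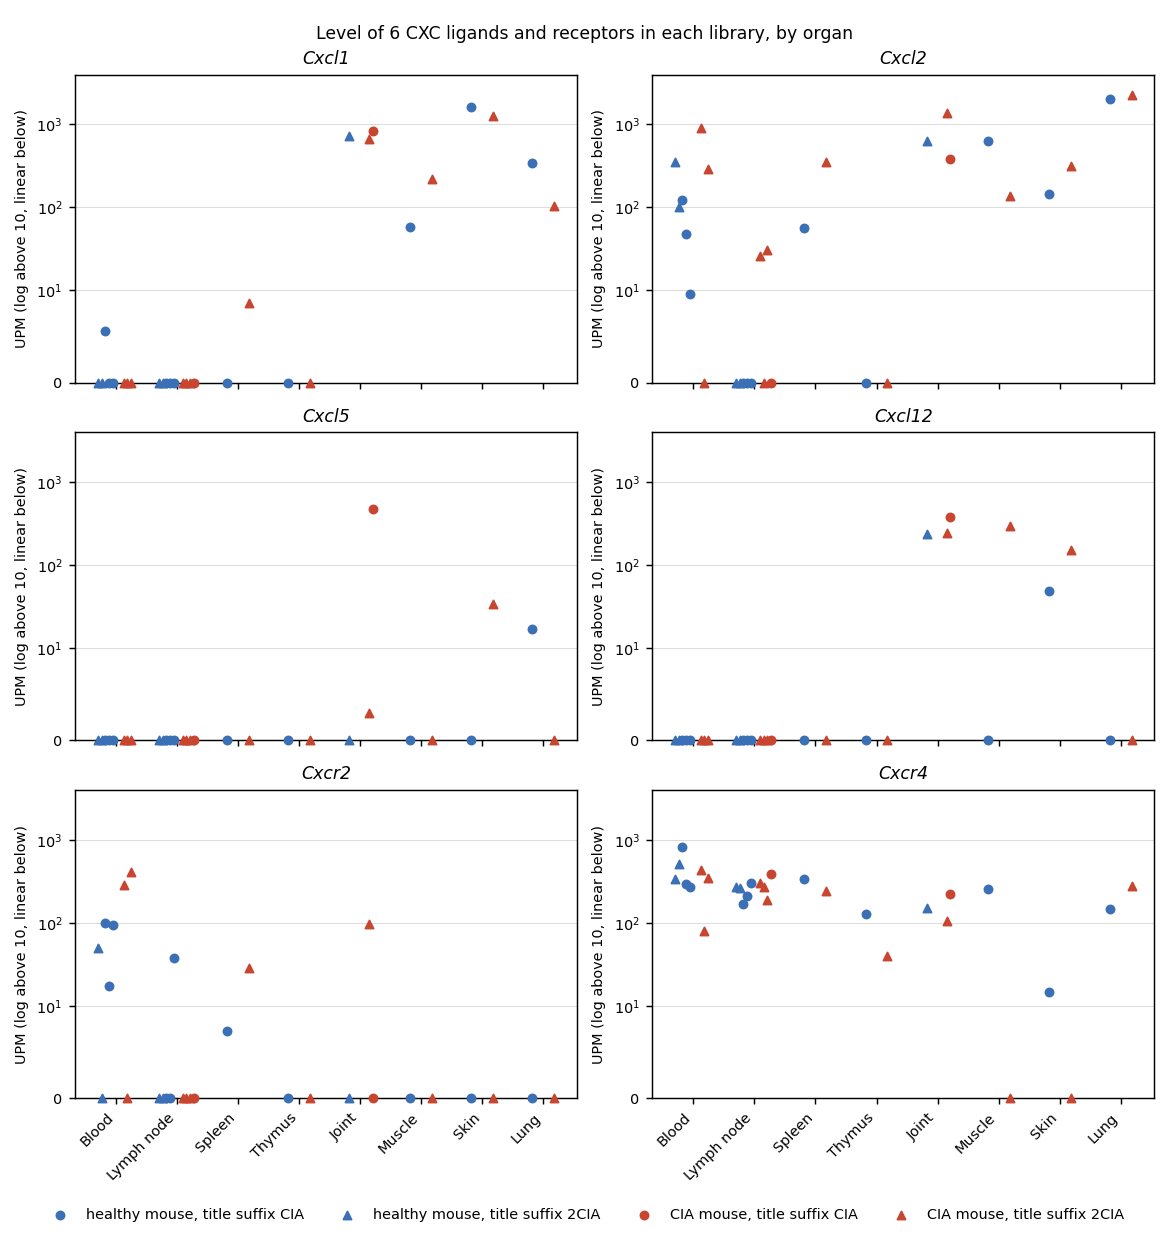
Level of each measured member in every library (vertical axis, UPM, logarithmic above 10 and linear below), by organ (horizontal axis), with healthy mice in blue, CIA mice in red, circles for the title suffix CIA and triangles for 2CIA. Cxcl1 is highest in skin, at 1616 and 1256 UPM, Cxcl2 in lung, at 2052 and 2245 UPM, and Cxcl12 is above 0 only in joint, muscle and skin.

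No member was called between the states in blood or lymph node. In blood, 3 of the 6 members had a mean of at least 25 UPM and entered the limma fit over all genes, in which 0.209% of 4794 genes were called, all higher in CIA. For Cxcl2 the healthy mean was 136 ± 152 UPM (SD, n = 4) and the CIA mean 396 ± 458 UPM (SD, n = 3). On the log2 scale CIA was 0.66 above healthy, with SE 1.08 and an adjusted p of 0.879 from limma. For Cxcr2 these means were 63.7 ± 37.1 UPM and 234 ± 213 UPM, 0.73 apart on the log2 scale (SE 1.02, adjusted p from limma 0.854). For Cxcr4 they were 443 ± 288 UPM and 288 ± 187 UPM, with -0.72 on the log2 scale (SE 0.60, adjusted p from limma 0.714), where the median of all genes was -0.36. None of the 3 estimates could be told from 0 here, and for Cxcl2 and Cxcr2 the SE exceeded the difference. The CIA means of both include S6 at 0.

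Neutrophil markers were highest in the CIA mice with most Cxcr2 in blood. All 11 markers were above 0 in S2, at 103626 UPM, 9 in S7, at 66400 UPM (Mmp9 and Ltf at 0), and 3 in S6, at 3785 UPM, against 2 to 10 markers and 1237 to 6109 UPM in the healthy libraries, with Ly6g at 0 in all of these. S6 lay in the healthy range. Cxcl2 did not follow these markers among healthy mice: H3, with the lowest sum, had the highest Cxcl2, and H7, with the highest sum, the lowest, although the library of H3 held only 27 barcodes with 7 distinct profiles. Monocyte and macrophage markers stood at 2941 UPM in S2 (6 of 10 above 0), 1715 UPM in S6 (5 of 10) and 421 UPM in S7 (3 of 10), against 107 to 244 UPM in the healthy libraries (2 to 5 of 10), with C1qa and Adgre1 at 0 in all of these. T cell markers stood at 343 to 700 UPM in the healthy libraries (4 to 6 of 6 above 0) and at 248 UPM in S2 (6 of 6), 83.3 UPM in S7 (1 of 6, the Cd3 genes, Lef1 and Bcl11b at 0) and 0 in S6. The part of these marker lists in the differences, that of Cxcr4 included, was not tested. All CIA blood libraries carried the suffix 2CIA, and among libraries with that suffix alone (2 healthy and 3 CIA mice) the log2 differences were -0.52 for Cxcl2, 2.14 for Cxcr2 and -0.81 for Cxcr4, with limma adjusted p of 0.996, 0.866 and 0.866. Leaving out 1 mouse moved these estimates. Without S6 they were 2.56 for Cxcl2, 2.45 for Cxcr2 (limma adjusted p 0.468 and 0.333) and -0.0041 for Cxcr4. That of Cxcl2 was 1.34 without H3 and -0.69 without S2, and that of Cxcr2 was -0.26 without S7.

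In lymph node, Cxcr4 alone entered the fit, in which 0.019% of 5277 genes were called. Its healthy mean was 260 ± 40.4 UPM (SD, n = 4) and its CIA mean 293 ± 18.8 UPM (SD, n = 3), which is 0.18 on the log2 scale (SE 0.28, adjusted p from limma 0.967). The groups overlapped. Cxcl2, above 0 in the 2CIA libraries of S1 and S7 and in no healthy mouse, gave an exact permutation p of 0.143, two-sided, where 35 assignments of the mice allow none below 0.0286, and an adjusted p of 0.715 over the 10 such tests made here. Cxcr2 gave an exact permutation p of 1, and Cxcl1, Cxcl5 and Cxcl12 were listed at 0 in all 7 mice.

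Between the organs of healthy mice, Cxcl2 was lower in lymph node than in blood in 4 of 4 mice, by a log2 estimate of -3.14 (SE 0.81), which did not pass the test (adjusted p from limma 0.136). Since lymph node was at 0, the size of this estimate rests on the pseudocount of 10: with a pseudocount of 1 it was -6.15, and that of Cxcr2 -4.43 (limma adjusted p 0.268 and 0.275). The groups did not overlap: lymph node was listed at 0 in every healthy mouse, against 9.63 to 350 UPM in blood. The healthy lymph node libraries are all among the 19 with few genes at low levels, at 12.6% to 18.8%. Blood of H7 and the 2CIA blood library of H4 are too, but blood of H3, H6 and H4 (suffix CIA) stood at 58.1%, 47.7% and 49.0%. The part of this uneven listing in the organ difference was not tested. Only 0.0376% of 5324 genes were called here, and Cxcl2 was not among them. Cxcr2 had lower values in 4 of 4 mice too, with -2.13 on the log2 scale (SE 0.74, limma adjusted p 0.168), and Cxcr4 in 3 of 4, with -0.58 (SE 0.40, limma adjusted p 0.484). With the mouse as a replicate block the limma adjusted p became 0.0852 for Cxcl2 and 0.155 for Cxcr2, also short of 0.05. Neutrophil markers ran from 0 to 3409 UPM in healthy lymph node (0 to 4 of 11 above 0) and from 1237 to 6109 UPM in healthy blood (2 to 10 of 11). Their part was not tested.

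Whether the CIA difference varied between the organs was tested as an interaction, where 0% of 5095 genes were called by limma (428 at an unadjusted p under 0.05). The difference in lymph node minus that in blood was 0.49 for Cxcl2 (SE 1.58, limma adjusted p 0.949), -1.30 for Cxcr2 (SE 1.39, limma adjusted p 0.811) and 0.90 for Cxcr4 (SE 0.72, limma adjusted p 0.732). With the mouse as a replicate block these were -1.77, -3.02 and 0.14, with 3 genes called and none of them a member. S1 had no blood library and S6 no lymph node library, so neither contributes to that estimate. Among CIA mice it rests on S2 and S7, and without S6 the unblocked estimate for Cxcr2 was -3.02 as well.

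**Figure D2:**
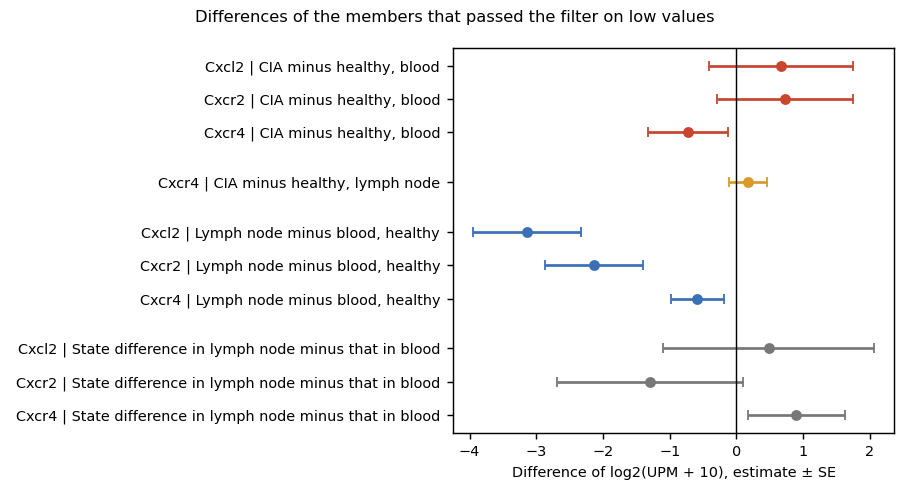
Difference of log2(UPM + 10) with its SE (horizontal axis) for each member that passed the filter on low values in the 4 limma comparisons (vertical axis). Cxcl2 and Cxcr2 in healthy lymph node against blood lie farthest from 0, at -3.14 and -2.13, and no member reached an adjusted p of 0.05.

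In organs with 1 mouse per state, values were set side by side without a test. In spleen, thymus, muscle, skin and lung, every library of H6 carried the suffix CIA and every library of S1 the suffix 2CIA. State, mouse and suffix therefore cannot be told apart in these organs. Of the members above 25 UPM on average, 1 of 2 differed by 2-fold or more on the log2(UPM + 10) scale in spleen, 1 of 1 in thymus, 2 of 5 in joint, 4 of 4 in muscle, 2 of 3 in skin and 1 of 3 in lung. Over all such genes this share was 36.5% in spleen, 15.9% in thymus, 26.1% in joint, 54.5% in muscle, 23.2% in skin and 43.5% in lung. In muscle the ligands parted: Cxcl1 was 3.78-fold higher and Cxcl2 4.62-fold lower in S1 than in H6, Cxcl12 was above 0 in S1 only and Cxcr4 in H6 only. The muscle library of S1 held only 54 barcodes with 16 distinct profiles. That of H6 is among the 19 with few genes at low levels, which limits its 0 for Cxcl12. Scaling by the total moved the log2 difference of Cxcl1 there from 1.75 to 2.48 and that of Cxcl2 from -2.13 to -1.39. Neutrophil markers there were 124346 UPM in H6 (11 of 11 above 0) and 12720 UPM in S1 (9 of 11, Mmp9 and Csf3r at 0). T cell markers there were 425 UPM in H6 (6 of 6) and 32.2 UPM in S1 (1 of 6, the Cd3 genes, Lef1 and Bcl11b at 0). Monocyte and macrophage markers were 239 UPM in H6 (4 of 10, with Csf1r, C1qa, C1qb, C1qc, Adgre1 and Fcgr1 at 0) and 1012 UPM in S1 (8 of 10, Adgre1 and Fcgr1 at 0). Fibroblast markers in muscle were 579 UPM in H6 (5 of 6, Pdgfra at 0) and 8163 UPM in S1 (6 of 6). The part of these lists was not tested. In lung Cxcl1 was 3.28-fold lower in S1 while Cxcl2 was 1.09-fold higher, beside lung epithelial markers of 17780 UPM in H6 (4 of 4) and 2001 UPM in S1 (2 of 4, Sftpa1 and Sftpb at 0). Neutrophil markers there were 400 UPM in H6 (3 of 11, Ly6g and Retnlg among those at 0) and 14788 UPM in S1 (8 of 11, with Mmp9, Csf3r and Ltf at 0), and fibroblast markers 167 UPM in H6 (3 of 6) and 0 in S1. The part of these lists was not tested. In spleen Cxcl2 was 6.28-fold and Cxcr2 3.86-fold higher in S1, beside neutrophil markers of 4202 UPM in H6 (7 of 11, with Csf3r, Ly6g, Mmp9 and Retnlg at 0) and 98085 UPM in S1 (11 of 11). Cxcr2 averaged under 25 UPM in spleen, with 9 units in 9 barcodes of H6, so its fold rests on few units. Monocyte and macrophage markers there were 185 UPM in H6 (4 of 10, with Cd68 and C1qa among those at 0) and 617 UPM in S1 (9 of 10, Adgre1 at 0), and erythroid markers 492 UPM (3 of 5, Hba-a2 and Alas2 at 0) and 90419 UPM (5 of 5). The part of these lists was not tested. In thymus Cxcr4 was 3.18-fold lower in S1, beside thymocyte markers of 1033 UPM in H6 and 543 UPM in S1 (4 of 4 above 0 in both) and T cell markers of 2411 and 1967 UPM (6 of 6 in both), whose part was not tested.

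In the joint, S1 as a whole held 723 UPM of Cxcl1, 1383 UPM of Cxcl2, 271 UPM of Cxcl12 and 122 UPM of Cxcr4, against 724, 639, 239 and 151 UPM in H3. Cxcl2 was therefore 2.16-fold higher in S1, but the CIA library of S1, taken alone, gave a log2 difference of -0.70, so the 2 libraries of that mouse differ in direction. Cxcl12 was 1.13-fold higher in S1, and with scaling by the total its log2 difference was -0.02. Neutrophil markers were 58220 UPM in H3 (9 of 11, Mmp9 and Csf3r at 0), 138272 UPM in the 2CIA library (11 of 11) and 71262 UPM in the CIA library (9 of 11), and their part was not tested.

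Without the 13 shared barcode sequences, Cxcl2 stood at 2374 UPM in lung of S1 and 60.1 UPM in spleen of H6, and Cxcr4 at 295 and 363 UPM, each within 1.5-fold of the value with them.

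Barcodes with a ligand were then set against barcodes with its receptor, as a description, since smoothing makes neighbours share values. Doublets were not called and free RNA was not measured in these smoothed values, and the part of either in a shared barcode was not tested. Over all libraries, 562 of 928 Cxcr2 barcodes also held Cxcl2, which is 60.6% of the Cxcr2 barcodes and 23.0% of the 2440 Cxcl2 barcodes. Within libraries, the share of Cxcr2 barcodes with Cxcl2 exceeded the library's own Cxcl2 share in 8 of 9. All 259 Cxcr2 barcodes of the S1 joint held Cxcl2, where 99% of all barcodes did, and all 37 in blood of S7, where 70.1% did. In spleen of S1, 96.4% of 84 Cxcr2 barcodes held Cxcl2 against 58.5% of all. In healthy blood the shares were 100% of 14 barcodes, with 5 distinct profiles, in H3 (55.6% of all), 14.0% of 265 in H7 (5.03% of all barcodes), 26.3% of 38 in H6 (15.7%) and 33.3% of 96 in the CIA-suffix library of H4 (17.4%). The exception was blood of S2, with 80.6% of 103 against 80.9%. Counted over distinct profiles, blood of H6 also fell below its library, with 16.7% against 18.8%, and the share over all libraries was 57.8%. Counted from 2 units, 0 of 130 Cxcr2 barcodes in blood of H7 held Cxcl2, against 1.07% of all.

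The other pairs did not share this pattern in most libraries. In the 2CIA joint library of S1, 227 of 259 Cxcr2 barcodes held Cxcl1, 87.6% against 92.9% of all barcodes. In spleen of S1, 0 of 28 Cxcl1 barcodes held Cxcr2, though all 28 held Cxcl2. In the CIA-suffix blood library of H4, by contrast, all 11 Cxcl1 barcodes held Cxcr2, and 11.5% of 96 Cxcr2 barcodes held Cxcl1 against 3.08% of all. No Cxcl5 barcode held Cxcr2 in the S1 joint, with 23 and 259 barcodes of 606. For Cxcl12 and Cxcr4, the share of Cxcr4 barcodes with the ligand was below the library's Cxcl12 share in all 4 libraries that held both: 70.0% of 100 against 76.2% in the joint of H3, 48.6% of 313 against 61.1% and 25.5% of 51 against 42.9% in the S1 joint libraries, and 12.9% of 31 against 41.1% in skin of H6.

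**Figure D3:**
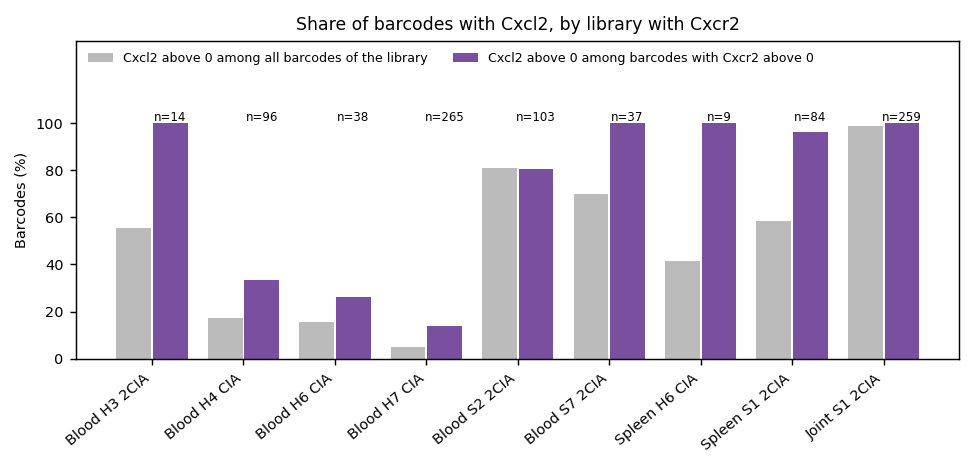
Share of barcodes with Cxcl2 above 0 (vertical axis, percent) among all barcodes of a library (grey) and among its barcodes with Cxcr2 above 0 (purple, with their number), for the 9 libraries with both genes. The purple bar is the higher in 8 of 9 libraries, and the 2 bars are level in blood of S2, at 80.6% and 80.9%.

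The barcodes that held each member differed in their marker genes. Barcodes with Cxcr2 carried more neutrophil marker than the other barcodes of their library in all 10 libraries, by 3.98-fold to 70.9-fold, with a median of 12.1-fold. In the S1 joint they held 342402 UPM of neutrophil markers against 24256 UPM, and 2745 UPM of fibroblast markers against 35211 UPM. Cxcl2 barcodes were higher in neutrophil markers in 18 of the 18 libraries that held both kinds of barcode, by 1.16-fold to 79.6-fold. The low end was skin, with 35.2 UPM against 30.3 UPM in H6, and in lung every barcode held Cxcl2. In lymph node, where few barcodes held Cxcl2, those 37 of S1 carried 19529 UPM of neutrophil markers against 263 UPM, and the 34 of S7 carried 8445 UPM against 106 UPM. Markers of monocytes and macrophages were also higher in Cxcl2 barcodes, in 15 of the 17 libraries that allowed the comparison, with a median of 2.64-fold and at most 12.9-fold. Blood of H6 and H7 were the exceptions.

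Cxcl12 and Cxcl1 barcodes were rich in fibroblast genes such as collagen I. Their neutrophil markers varied between libraries, being higher in Cxcl1 barcodes in 6 of 10, with a median of 1.28-fold, and in Cxcl12 barcodes in 3 of 6, by 0.112-fold to 15.3-fold over all 6. Fibroblast markers were higher in Cxcl12 barcodes in 5 of 6 libraries, at 33476 UPM against 5139 UPM in the 2CIA joint library of S1, 26626 UPM against 747 UPM in its CIA library and 46900 UPM against 1196 UPM in skin of S1. Skin of H6 was the exception, with 3213 UPM against 4285 UPM. In Cxcl1 barcodes they were higher in all 7 libraries that allowed the comparison, by 1.70-fold to 34.3-fold, at 15057 UPM against 1028 UPM in the joint of H3 and 25872 UPM against 754 UPM in the 2CIA joint library of S1, where weighting barcodes by their Cxcl1 units gave 39899 UPM. In lung and spleen of S1, all 6 fibroblast markers were at 0, so the 64 and 28 Cxcl1 barcodes there carried none. The 11 Cxcl1 barcodes of H4 blood differed too, with 102466 UPM of neutrophil markers against 2382 UPM. Cxcl5 barcodes were higher in fibroblast markers in 4 of 4 libraries, with 39151 UPM in the 20 of the S1 joint against 999 UPM. Cxcr4 barcodes varied between libraries in T cell markers, which were higher in 8 of 24. The median fold was 0.865, with a range of 0.0472 to 19.2. The neutrophil markers of Cxcr4 barcodes were higher in 20 of 25 libraries, with a median of 1.86-fold and more than 2-fold in 12. In the joint of H3 most barcodes held both Cxcl1 and Cxcl2, 160 of 193, so barcodes without either are too few there to set these neighbours apart.

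**Figure D4:**
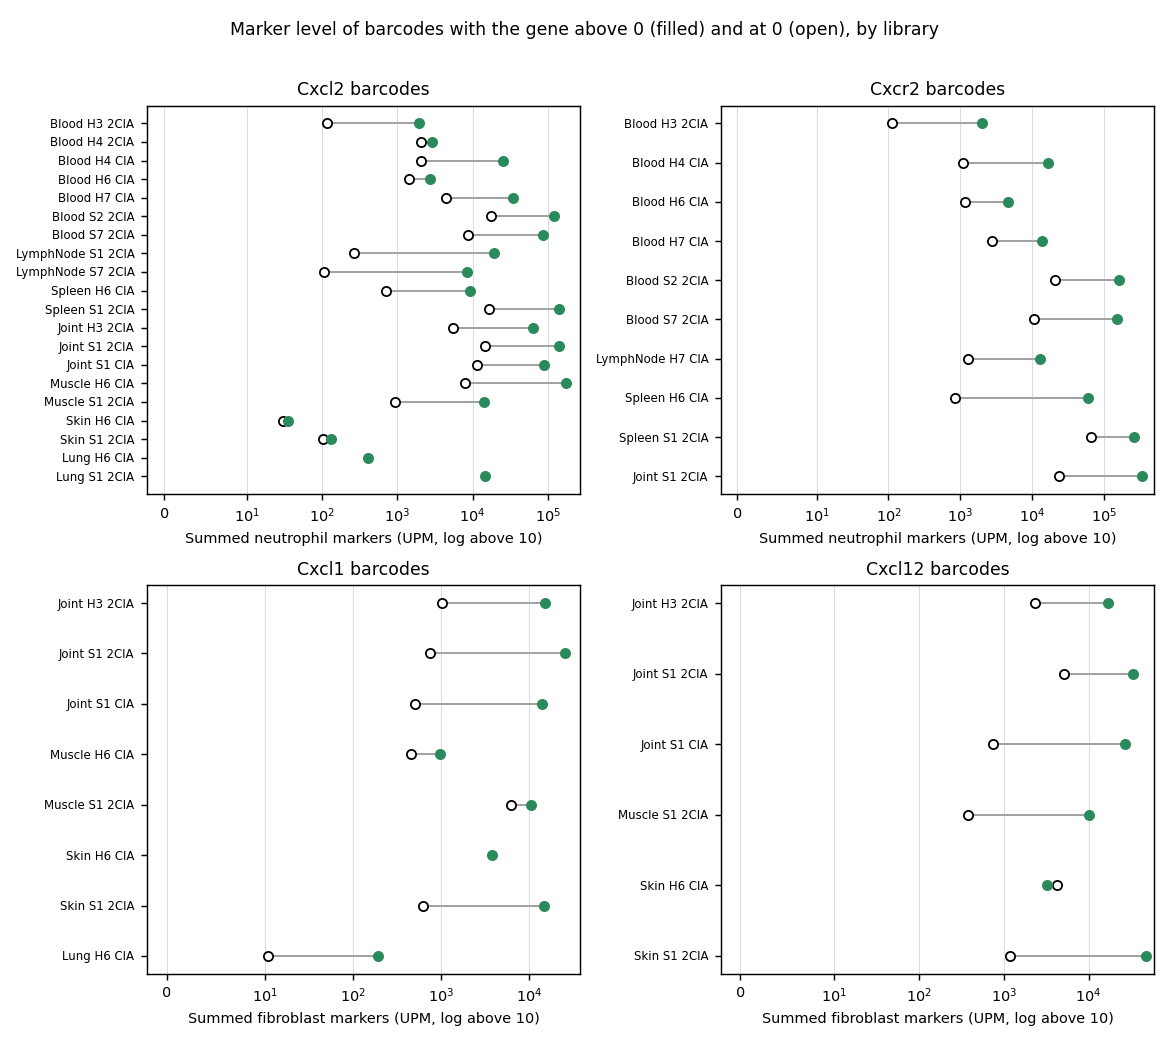
Summed marker level (horizontal axis, UPM, logarithmic above 10) of barcodes with the named gene above 0 (filled) and at 0 (open), by library (vertical axis), with neutrophil markers for Cxcl2 and Cxcr2 and fibroblast markers for Cxcl1 and Cxcl12. Filled points lie to the right throughout for Cxcr2 and Cxcl2, and for Cxcl12 in 5 of 6 libraries, with skin of H6 reversed at 3213 against 4285 UPM. Libraries in which every barcode held the gene have no open point.

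The genes whose levels followed each member most closely over the 26 sums of a mouse and organ are given as a description, since these sums share mice, organs and the gene filter of their libraries. Cxcl12 was followed by Pcolce (Pearson r 0.998), a helper of collagen processing, Mmp2 (0.986), a matrix protease, and Dpt (0.985), a matrix protein. Cxcl1 was followed by Thbs1 (0.978), a matrix glycoprotein of platelets and stroma, Mt2 (0.975), a metallothionein, and Adamts1 (0.967), a matrix protease. Cxcl2 was followed by Cd14 (0.917), the endotoxin co-receptor of myeloid cells, Cebpb (0.894), a transcription factor of the acute response, and Lamp1 (0.881), a lysosomal membrane protein. For Cxcr2 they were Il1b (0.849), the interleukin 1 beta gene, Ifitm1 (0.803) and the erythroid gene Alas2 (0.775). For Cxcr4 they included Foxp1 (0.864), a transcription factor of lymphocytes, and Crlf3 (0.862). For Cxcl5 the closest, Ctsk, Ccn2 and Bgn, reached 0.762, 0.739 and 0.707. Between members, r was 0.623 for Cxcl1 and Cxcl2, 0.810 for Cxcl1 and Cxcl12, 0.290 for Cxcl2 and Cxcr2 and -0.683 for Cxcl12 and Cxcr4.

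Other CXC genes were followed from a fixed list of 16, of which 15 were measured. In blood 2 of these passed the filter and none was called in either direction: Pf4, a platelet chemokine, with 1.14 on the log2 scale (limma adjusted p 0.714) and values above 0 only in H4 (18.2 UPM) and S2 (225 UPM), and Cxcr5, the B cell receptor of Cxcl13, with -1.42 (limma adjusted p 0.648). In lymph node 0 passed the filter, and 11 of the 15 in blood and 10 in lymph node were listed at 0 in all mice. Cxcl14, a stromal chemokine, was found where Cxcl12 was (r 0.971), with 475 UPM in the joint of H3 and 391 and 1443 UPM in the S1 joint libraries. Ackr3, the scavenger receptor of Cxcl12, followed it too (r 0.960), at 105 UPM in the joint of H3 and 66.4 and 56.7 UPM in the S1 libraries. Cxcl3, the third Cxcr2 ligand with the same promoter letters, was highest in lung, with 69.3 UPM in H6 and 275 UPM in S1, the organ that also led for Cxcl2.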

How the data were processed

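Single-cell RNA was measured with Seq-Well in 30 libraries of 8 mice. Per the study's methods, the authors aligned reads to GRCm38 with STAR, counted molecules with the Drop-seq tools and kept barcodes above minima of reads, transcripts and genes. The values deposited by the authors for these pilot organs are a smoothed signal: whole-number sums over a barcode and its nearest neighbours, of which 8282 columns held 4590 distinct profiles with totals of 4373 to 36435. No counting interval or detection limit was therefore derived. Rows are Entrez numbers, and symbols were found for 21404 of 23013.

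Units were summed per mouse and organ, scaled to units per 1000000 by an unweighted trimmed mean (each tail lost 30% of the log ratios and 5% of the levels, numpy 2.4.6) and tested as log2(UPM + 10) with limma 3.58.1 in R 4.3.3, with a mean-variance trend, over genes averaging 25 UPM or more. Benjamini-Hochberg adjustment covered all genes tested, two-sided, and a call had an adjusted p under 0.05. Tested on simulated data, the fit recovered the size of the changes put in, but called none of the smaller ones in blood or in the interaction. The pseudocount shrinks log2 differences of low genes. Genes under the filter had an exact permutation test over mice. Same-numbered samples came from the same animal, so the mouse was tried as a replicate block, although the deviations of a mouse in blood and lymph node correlated at -0.27 to 0.17. A barcode held a gene when its value was above 0. Barcodes were not treated as replicates. Named genes were the members, a list of other CXC genes, marker genes and, per member, the 3 genes most alike among those with a mean of at least 25 UPM, of which 1 is not reported here. The members and lists were chosen with earlier results of these data known. Promoters came from RefSeq (GRCm38.p6). Alternatives were another scaling (total, median of ratios), a pseudocount of 1, no filter, no trend, leaving out each mouse, the suffix 2CIA alone, every library as a sample, distinct profiles and at least 2 units. Those on shared barcodes, single joint libraries and weighted marker levels were chosen after seeing the data.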

Additional observations from a re-analysis of the deposited data

Results flagged for a closer look

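Among the 6 groups of 4 healthy mice in which a member varied, 2 had a mouse far from the others, by the gap to its neighbour as a share of the whole range on the log2(UPM + 10) scale. On the UPM scale itself Cxcr4 in blood of H4, at 873 UPM, would stand apart as well. Chance gives about 1 in 20 for continuous values, a rate that does not apply here, because with 3 mice listed at 0 the share is 1 by construction. In healthy blood Cxcl1 was above 0 only in H4, at 5.13 UPM, a share of 1. In healthy lymph node Cxcr2 was above 0 only in H7, at 38.4 UPM, also a share of 1, beside 3409 UPM of neutrophil markers in that library (3 of 11 above 0), the highest of the healthy lymph nodes.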

How the results depend on the processing

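No member passed an adjusted p of 0.05 in any of 133 combinations of member, comparison and alternative, and 123 kept their direction. The count of all genes called in blood, 10, became 16 with total scaling, 0 with a pseudocount of 1, 30 without a filter, 0 without the trend and 28 with every library as a sample, and 0 to 17 when a mouse was left out. The 1 call in lymph node became 6 without a filter, 0 without the trend, 3 in the suffix 2CIA alone and 2 with every library as a sample, and 0 to 7 when a mouse was left out. The 2 calls between healthy organs became 0 with a pseudocount of 1, 31 without a filter, 1 without the trend and 0 in the suffix 2CIA, and 0 to 3 when a mouse was left out. With the mouse as a replicate block, 10 genes were called between the organs and 3 in the interaction, where 0 were called otherwise. The causes of these changes in count were not tested. In the interaction, the block also leaves S1 and S6 without weight. Reversed log2 differences were those of Cxcl2 in blood (-0.15 with a pseudocount of 1, -0.52 in the suffix 2CIA, -0.69 to 2.56 when a mouse was left out), Cxcr2 in blood (-0.13 with a pseudocount of 1, -0.26 to 2.45 when a mouse was left out), Cxcr4 in lymph node (-0.090 in the suffix 2CIA) and Cxcl2 in the interaction (-1.77 with the replicate block, -1.42 to 2.41 when a mouse was left out). For barcodes with Cxcr2, the share with Cxcl2, 60.6%, became 65.3% with at least 2 units for both, while in blood of H7 it became 0%. In the organs with 1 mouse per state, the CIA joint library of S1 alone gave -0.70 for Cxcl2, and weighting barcodes by units raised the neutrophil marker level of Cxcl2 barcodes in the 2CIA joint library from 139514 to 264990 UPM. Smoothing, 1 mouse per state in 6 organs and few genes listed at low levels in 19 libraries limit these values.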
